A study of Mus musculus with 42 samples.

Results

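The liver transcriptome of mice after 14 days of a high-fat diet (HFD) was measured as total RNA on 8 expression arrays and is set against 18 arrays from control mice that were fed a low-fat diet. The members were taken by their labels, and these 26 of the study's 42 arrays are described across all 17989 genes that had 1 symbol on the array. The other 16 arrays, 8 after 7 days and 8 after 21 days of HFD, entered the same fit and serve for the comparison between feeding times. All animals were male wild-type C3HeB/FeJ mice, an inbred strain, housed singly and sampled while feeding at will. The 14-day mice were 16 weeks old, while the controls were 15 to 17 weeks old and pooled over a low-fat diet of at most 21 days. No label ties a replicate number to an animal, so the p-values reflect array-to-array spread, which may be technical in part. Control and 21-day titles contain the word reanalysis, whereas 7-day and 14-day titles lack it. In the comparison of 14 days with controls, diet and any batch marked by that word cannot be told apart. The same holds for feeding time in the comparison of 14 with 21 days.

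The liver takes up fatty acids from blood and either oxidises them or stores them as triglyceride in lipid droplets. Fatty acids and their derivatives are ligands of the nuclear receptor PPAR-alpha, which acts as a dimer with the retinoid X receptor and drives genes of mitochondrial, peroxisomal and omega oxidation, ketone body synthesis and lipid droplet turnover. Fatty acid synthesis is driven mainly by the transcription factors SREBP-1c and ChREBP, which respond to insulin and to carbohydrate. Mouse liver also holds many genes whose level differs between the sexes under the pattern of growth hormone release. The study's title places changes of membrane lipids and of mitochondrial membrane proteins before hepatic insulin resistance, and the array part asks which transcripts differ at each time of feeding.

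After 14 days of HFD, 120 of the 17989 genes (0.667%) were called at a limma adjusted p under 0.05. Of these 91 were higher (0.506%) and 29 lower (0.161%) than in controls. A change of 2-fold or more was reached by 19 genes, 15 of them higher and 4 lower. The median called rise was 0.62 and the median called fall -0.55 on the log2 scale, and the smallest called change was 0.27. All 8 arrays lay on the same side of the control mean for 80 of the 91 risen and 25 of the 29 fallen genes. The genes were called by this same difference, so high shares follow in part from the choice and are no further evidence. An unadjusted p under 0.05 was seen for 1079 genes, and 0.05 of all genes tested is 899. The median standard error of a log2 difference was 0.09, and the median difference over all genes was -0.0047. In bulk tissue, fewer or more cells of a type and less or more RNA per cell cannot be told apart.

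There were 14 genes (0.0778% of all tested) for which every 14-day array lay above every control: Cyp4a14, Vnn1, Cyp4a31, Cyp4a10, Abcd2, Apoa4, Vnn3, Fabp2, Aldh3a2, Fads2, Mgll, Plin2, Decr2 and Bdh1. For 4 genes (0.0222%) every 14-day array lay below every control: Acmsd, Etnppl, Ugdh and Cryl1. All of these were among the called genes. Values below are log2 RMA values (a log2 scale of array brightness after background correction and normalisation), given as the lowest, the median and the highest array of a group, with n = 8 arrays at 14 days and n = 18 controls. On the same scale the 929 olfactory receptor genes, which liver is not known to use, had a 95th percentile of 2.86, taken as the background.

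**Figure D1:**
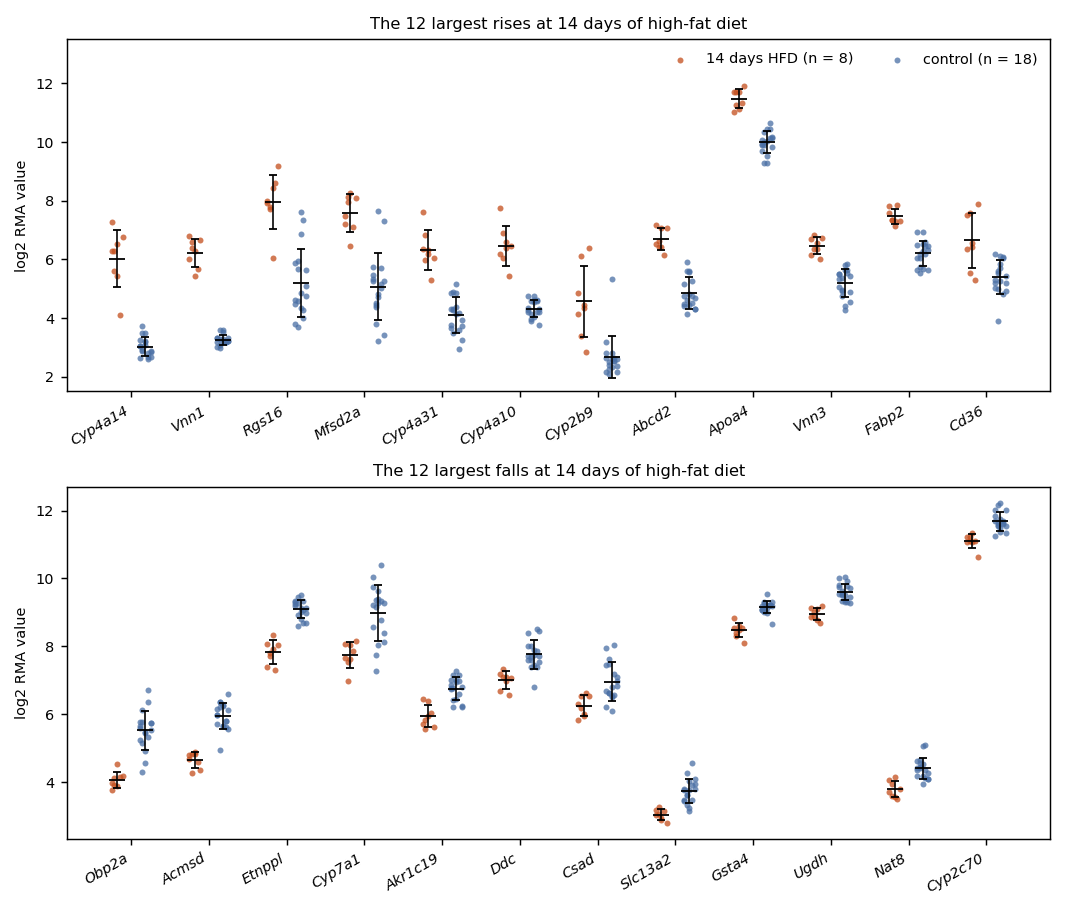
Each point is the log2 RMA value of 1 array for the 12 largest rises (top) and the 12 largest falls (bottom), with 8 arrays at 14 days of HFD on the left and 18 controls on the right of each gene; bars are the mean and SD. Cyp4a14 and Vnn1 stand well apart from controls, whereas Cyp2b9 and Cd36 overlap with them.

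Targets of PPAR-alpha held the largest group of rises: 20 of 34 measured members rose and 0 fell, where 0.506% of all genes rose. The list's median log2 difference was 0.62, against -0.0047 over all genes. The lists were chosen with earlier results of these data known, so these shares describe the genes and are not a test. The lists also overlap, so a gene can count in several of them. Vnn1, a pantetheinase that releases cysteamine, read 5.44, 6.34 and 6.79 after 14 days and 2.96, 3.23 and 3.60 in controls. The groups were far apart, and control arrays lay near the background. Vnn1 was 7.79-fold higher (log2 2.96, SE 0.15, limma adjusted p = 1.38e-18), and its neighbour on chromosome 10, Vnn3, was 2.42-fold higher (log2 1.27, SE 0.17, adjusted p = 2.07e-06). Cyp4a14, a cytochrome P450 that hydroxylates fatty acids at their omega end, read 4.10, 6.28 and 7.26 on the 14-day arrays and 2.61, 2.98 and 3.73 on the controls. Replicate 4 was the lowest and replicate 1 the highest, and both were above all controls. The rise of 8.02-fold (SE 0.26 on the log2 scale, adjusted p = 4.59e-11) was the largest of all genes. Its relatives next to it on chromosome 4 followed: Cyp4a31 was 4.71-fold higher (log2 2.24, SE 0.22, adjusted p = 9.26e-10) and Cyp4a10 was 4.42-fold higher (log2 2.14, SE 0.17, adjusted p = 2.11e-12). Replicate 4 was the lowest and replicate 1 the highest array for these as well. Probe sets of such close relatives can hybridise to each other's transcripts. The male-biased members Cyp4a12a and Cyp4a12b had log2 differences of -0.21 and -0.20 and were not called.

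Aldh3a2, which oxidises fatty aldehydes, read 9.01, 9.18 and 9.61 at 14 days and 7.38, 7.99 and 8.61 in controls, without overlap (2.30-fold higher, adjusted p = 6.12e-09). The acyl-CoA thioesterase genes Acot1 to Acot4, which lie side by side on chromosome 12, rose by similar amounts and were the 4 called of 21 acyl-CoA synthetase and thioesterase genes. Their log2 changes were 0.66 for Acot1, 0.73 for Acot2, 0.62 for Acot3 and 0.67 for Acot4, with adjusted p between 0.00341 (Acot4) and 0.0446 (Acot3). Acot1 is cytosolic and Acot2 mitochondrial, and both split acyl-CoA into fatty acid and coenzyme A. For Acot2 no 14-day array exceeded the highest control, which read 5.44 as did the highest 14-day array, so the groups overlapped despite the shift. Retsat, which saturates retinol, rose by 0.67, Pex11a, a factor of peroxisome division, by 0.62 and Slc22a5, a carnitine importer of the cell membrane, by 0.64. Ppara itself, the gene of the receptor, read 7.6, 8.10 and 8.34 at 14 days and 6.84, 7.47 and 7.93 in controls (log2 0.55, SE 0.14, adjusted p = 0.036). It was the 1 called member of 34 nuclear receptors and metabolic transcription factors, of which Bcl6, a repressor, was the lowest at -0.48. The groups overlapped, with 5 of 8 arrays above the highest control. Among members that were not called, Pdk4, a kinase that blocks pyruvate dehydrogenase, had a log2 difference of 0.28 and Cidec, a lipid droplet protein, one of 0.08. The calls were lost when single arrays were left out for Acot3 (7 of the 14-day and 10 of the control arrays, largest adjusted p = 0.166), for Ppara (14-day replicates 1, 2, 5, 7 and 8 and control replicates 1, 2, 3, 8, 10 and 14, largest 0.142) and for Retsat (14-day replicate 1, 0.0616).

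In mitochondrial fatty acid oxidation 7 of 19 members rose, 0 fell, and all 19 had differences above 0, with a median of 0.39. The beta-oxidation spiral shortens fatty acids in repeated steps of dehydrogenation, hydration, a second dehydrogenation and cleavage, and calls were found at several of them. Acadl, long-chain acyl-CoA dehydrogenase, rose by 0.52 (adjusted p = 0.00504), and Hadh, which dehydrogenates short hydroxyacyl chains, rose by 0.44 (adjusted p = 0.000525). Hadha and Hadhb encode the alpha and beta subunits of the trifunctional protein, which carries out the later steps for long chains. Hadhb read 9.45, 9.61 and 9.70 at 14 days and 8.84, 9.12 and 9.61 in controls, so that all 8 arrays lay above 17 of the 18 controls. It rose by 0.50 (SE 0.09, adjusted p = 0.000787), and Hadha by 0.41 (SE 0.09, adjusted p = 0.0117). The auxiliary enzymes Eci2 and Decr1, which handle unsaturated chains, rose by 0.64 and 0.52. Slc25a20, the carnitine-acylcarnitine carrier of the inner membrane, rose by 0.48. Among members not called, Cpt2, the inner carnitine palmitoyltransferase, had a difference of 0.50, Acadm of 0.25, Acadvl of 0.18 and Echs1 of 0.02.

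Hadha and Hadhb share a promoter region: in the RefSeq annotation of GRCm38.p6 their starts lie 273 bases apart on chromosome 5, head to head. The 250 bases before the Hadhb start (chr5:30155003-30155252, plus strand) are shown because they span most of the interval between these risen neighbours. Neither the nuclear receptor core motif spelled out with Mfsd2a nor the E-box or TATA box was found in them.
Hadhb: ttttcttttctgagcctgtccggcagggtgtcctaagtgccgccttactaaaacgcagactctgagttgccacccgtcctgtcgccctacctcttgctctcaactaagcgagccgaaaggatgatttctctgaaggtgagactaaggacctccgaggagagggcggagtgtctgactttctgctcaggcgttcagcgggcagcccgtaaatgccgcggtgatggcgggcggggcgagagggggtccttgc

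The respiratory chain, which reoxidises the electron carriers that beta-oxidation reduces, had no called member. Of 32 complex I genes and 37 genes of complexes II to IV and ATP synthase, 0 were called by limma, and 2 and 0 had an unadjusted p under 0.05. Both lists had a median difference of -0.02. The 95% limits of the difference lay within 1.5-fold either way for 31 of 32 and for 37 of 37. The lowest and highest members were Ndufs6 at -0.18 and Ndufs5 at 0.38 in complex I, and Sdhb at -0.18 and Atp5k at 0.18 in the other list. Suclg1, a subunit of succinyl-CoA ligase, was the 1 called gene among 18 of the tricarboxylic acid cycle (log2 0.37, adjusted p = 0.00479), and Pcx, pyruvate carboxylase, had the highest value at 0.65. Among 29 mitochondrial carriers 3 rose and 0 fell. Beside Slc25a20 these were the liver carrier gene Slc25a47 (9.54, 9.78 and 10.02 at 14 days, 8.65, 9.14 and 9.59 in controls, log2 0.66, adjusted p = 1.66e-05) and Slc25a30 (log2 0.75, adjusted p = 0.0455). The Slc25a30 call was lost without any 1 of 19 arrays (6 of the 14-day and 13 of the control arrays, largest adjusted p = 0.187). In the list of mitochondrial membrane lipids and dynamics, which holds cardiolipin and fusion genes, 0 of 24 were called and 0 had an unadjusted p under 0.05 in limma. Its members ran from Ptpmt1 at -0.21 to Mfn2 at 0.23.

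**Figure D2:**
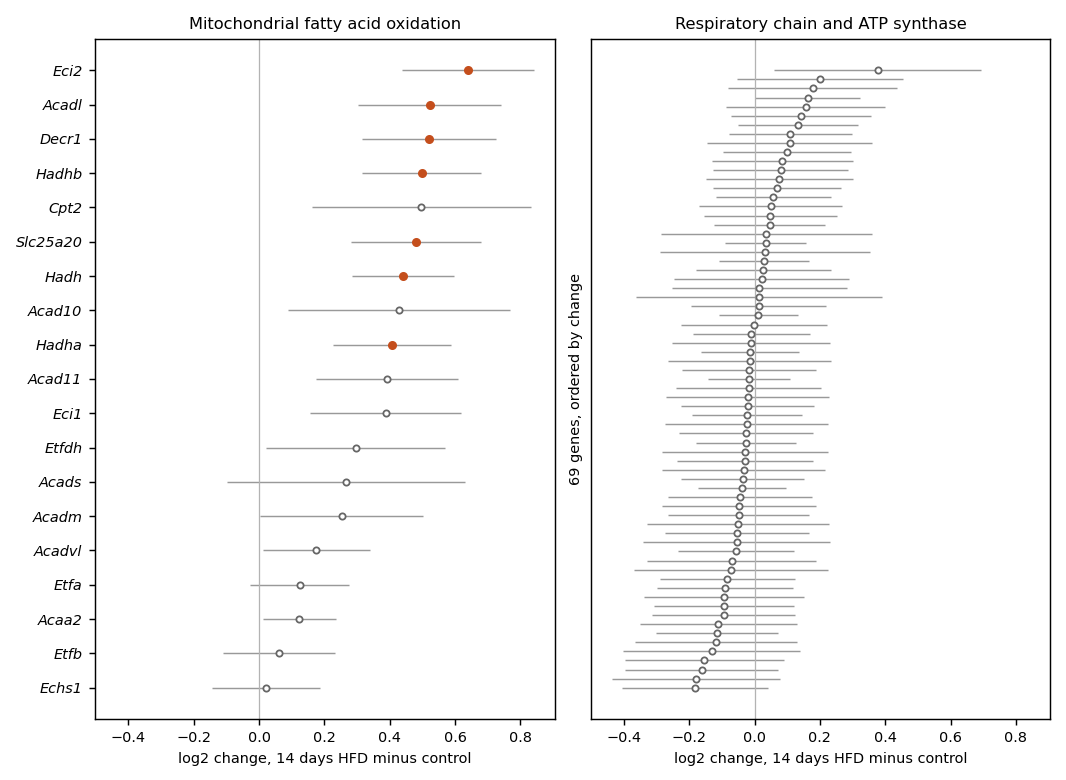
Points are log2 differences, 14 days of HFD minus control, with 95% limits as lines; filled points passed the limma test and open ones did not. The 19 genes of mitochondrial fatty acid oxidation (left) lie to the right of 0, led by Eci2 at 0.64, while the respiratory chain and ATP synthase genes (right) lie around 0.

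In peroxisomal oxidation and biogenesis 7 of 22 rose and 0 fell (median 0.24). Abcd2, a peroxisomal importer of very long and polyunsaturated acyl-CoA, read 6.15, 6.58 and 7.18 after 14 days, against 4.14, 4.71 and 5.92 in controls. The groups did not overlap, and Abcd2 was 3.58-fold higher (log2 1.84, SE 0.21, adjusted p = 4.32e-08). Its relative Abcd3 rose by 0.44. Crat, carnitine acetyltransferase, was 1.99-fold higher (adjusted p = 2.51e-05), and Decr2, the peroxisomal dienoyl-CoA reductase, by 0.72 (adjusted p = 4.71e-07). Ehhadh, the peroxisomal bifunctional enzyme, and Acaa1b, a thiolase, rose by 0.65 and 0.66. Members of the branched-chain and bile acid route were not called: Acox2 had a difference of -0.16, Hacl1 of -0.18 and Scp2 of -0.00. Of 6 measured ketone body genes 2 rose. Bdh1, which interconverts the main ketone bodies, read 8.90, 9.27 and 9.47 at 14 days and 8.19, 8.64 and 8.85 in controls (log2 0.63, adjusted p = 1.66e-05), with no overlap. Acat1, the mitochondrial acetoacetyl-CoA thiolase, rose by 0.36 (adjusted p = 0.043), a call lost without any 1 of 15 arrays (6 of the 14-day and 9 of the control arrays, largest adjusted p = 0.147).

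Genes of fatty acid uptake and binding were divided: 3 of 14 rose, 0 fell, and the median was 0.02. Mfsd2a, a transporter of lysophosphatidylcholine, read 6.46, 7.71 and 8.25 at 14 days and 3.21, 5.09 and 7.64 in controls. The controls spread widely, and 2 of 18 reached the lowest 14-day array. The rise was 5.72-fold (log2 2.52, SE 0.36, adjusted p = 9.68e-06). Fabp2, best known as the intestinal fatty acid binding protein, read 7.14, 7.35 and 7.86 after 14 days and 5.53, 6.25 and 6.95 in controls, without overlap (2.39-fold higher, adjusted p = 9.55e-07). Cd36, a fatty acid translocase, read 5.30, 6.49 and 7.88 on the 14-day arrays and 3.89, 5.37 and 6.18 on the controls. Replicates 5, 6 and 7 all read 7.50 or more, while replicates 2 and 4 lay within the control range. Cd36 rose by 1.25 (SE 0.30, adjusted p = 0.0265), and the call was lost without 14-day replicate 3, 5, 6 or 7 (largest adjusted p = 0.145). Fabp1, the main liver form, had a difference of 0.37, Lpl, lipoprotein lipase, of -0.53 and Fabp5 of -0.51, and none of these was called.

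The 250 bases before the Mfsd2a start (RefSeq, GRCm38.p6, chr4:122961189-122961438, minus strand, written 5′ to 3′ along the gene) are shown as those of a strongly risen gene (5.72-fold). Capitals mark AGGTCA, the core motif that many nuclear receptors bind, 213 bases before the start.
Mfsd2a: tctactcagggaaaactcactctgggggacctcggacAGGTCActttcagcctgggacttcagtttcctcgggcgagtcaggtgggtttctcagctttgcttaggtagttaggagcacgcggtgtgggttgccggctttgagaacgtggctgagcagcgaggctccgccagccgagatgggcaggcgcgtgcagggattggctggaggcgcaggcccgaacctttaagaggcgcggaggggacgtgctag

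Promoter windows were found for 92 of the 120 called genes, 70 of them higher and 22 lower, and for 14084 of all genes tested. Cyp4a10, Cyp4a14, Cyp4a31, Vnn1 and Abcd2, which were among the largest rises, had no window. The core motif, read on both strands, stood in 11 windows of the risen genes (15.7%), in 7 of the fallen genes (31.8%) and in 14.3% of all windows. A direct repeat of the core motif, that is 2 copies in a row with any 1 base between them, the textbook form of a PPAR site, stood in 0 risen and 0 fallen windows and in 7 of all 14084 (0.0497%). With any base allowed in place of the T in each copy, it stood in 1 risen window (1.43%), in 0 fallen ones and in 0.383% of all. The strict direct repeat was so rare over all windows that its 0 among the risen and fallen genes was not informative. Windows with the direct repeat also count under the single motif. The E-box CACGTG stood in 12.9% of risen, 4.55% of fallen and 8.17% of all windows. The TATA box, spelled out with Obp2a and likewise read on both strands, stood in 10% of risen, 22.7% of fallen and 12.6% of all. A match describes letters in these windows and is not a bound site.

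Lipid droplets and lipolysis had 3 of 21 members higher and 0 lower. Plin2, the coat protein of liver lipid droplets, read 9.80, 10.01 and 10.35 at 14 days and 8.86, 9.37 and 9.68 in controls (1.64-fold higher, SE 0.09 on the log2 scale, adjusted p = 2.07e-06). Mgll, which cleaves monoacylglycerol, read 7.66, 7.81 and 8.05 at 14 days against 6.13, 6.95 and 7.51 in controls and was 1.90-fold higher (adjusted p = 1.44e-06). For both genes every 14-day array exceeded every control. Fitm1, which helps to form lipid droplets and is best known from muscle, rose by 0.61, a call lost without 14-day replicate 1 (adjusted p = 0.0627). Adipocyte-type droplet genes were not called, among them Plin4 at -0.01, Plin1 at -0.01 and Cidea at 0.05, and neither was Pnpla2, the first triglyceride lipase, at 0.29. In triglyceride assembly 1 of 14 rose, Gpam, which adds the first acyl chain to glycerol 3-phosphate. It read 9.70, 10.37 and 10.63 after 14 days and 8.21, 9.29 and 10.10 in controls (log2 0.95, SE 0.19, adjusted p = 0.00413). The lowest member was Gpat2 at -0.11, and Lpin2 (0.69) and Lpin1 (0.60), phosphatidate phosphatases, were not called. Apoa4, an apolipoprotein of triglyceride-rich particles, was the 1 called member of 19 lipoprotein genes. It read 11.03, 11.52 and 11.92 after 14 days and 9.27, 10.02 and 10.64 in controls, a 2.81-fold rise without overlap (log2 1.49, SE 0.14, adjusted p = 1.67e-10). Apob, the structural protein of very low density lipoprotein, differed by 0.13, and Angptl8, an inhibitor of lipoprotein lipase that feeding raises, by -0.75 (adjusted p = 0.502).

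Fatty acid desaturation and elongation had 5 of 16 members higher and 0 lower, and 4 of the called genes belong to the route of polyunsaturated fatty acids. Fads2, the delta-6 desaturase, read 10.76, 11.36 and 11.53 at 14 days and 9.03, 10.29 and 10.70 in controls (2.18-fold higher, adjusted p = 8.34e-05). Fads1, the delta-5 desaturase, rose by 0.84 (adjusted p = 0.0161), and the elongases Elovl5 and Elovl2 rose by 0.78 (adjusted p = 0.000567) and 0.72 (adjusted p = 0.000267). Hacd3, a dehydratase of the elongation cycle, rose by 0.32. The Fads1 call was lost without 14-day replicate 5 or 7 (largest adjusted p = 0.0596), and the Hacd3 call without any 1 of 14 arrays (6 of the 14-day and 8 of the control arrays, largest 0.147). Scd1, which makes monounsaturated fatty acids, differed by 0.24, and Elovl3 by -0.50, neither called.

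De novo lipogenesis had 0 of 13 members called, 6 with an unadjusted p under 0.05 in limma and a median of 0.32. Fasn, fatty acid synthase, read 8.43, 9.52 and 9.89 after 14 days and 6.59, 8.62 and 9.69 in controls. Its difference of 0.93 had 95% limits of 0.31 and 1.55 (adjusted p = 0.337). Acaca, acetyl-CoA carboxylase, read 6.73, 7.31 and 7.56 after 14 days and 5.28, 6.41 and 7.65 in controls, a difference of 0.76 (adjusted p = 0.109). The SD was 0.50 for Fasn and 0.30 for Acaca at 14 days, against 0.95 and 0.66 in controls. Srebf1 differed by 0.32 and Mlxipl, which encodes ChREBP, by -0.08. Cholesterol synthesis and uptake had 0 of 19 called and 4 with an unadjusted p under 0.05. Its members ran from Msmo1 at -0.06 to Mvd at 0.50.

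**Figure D3:**
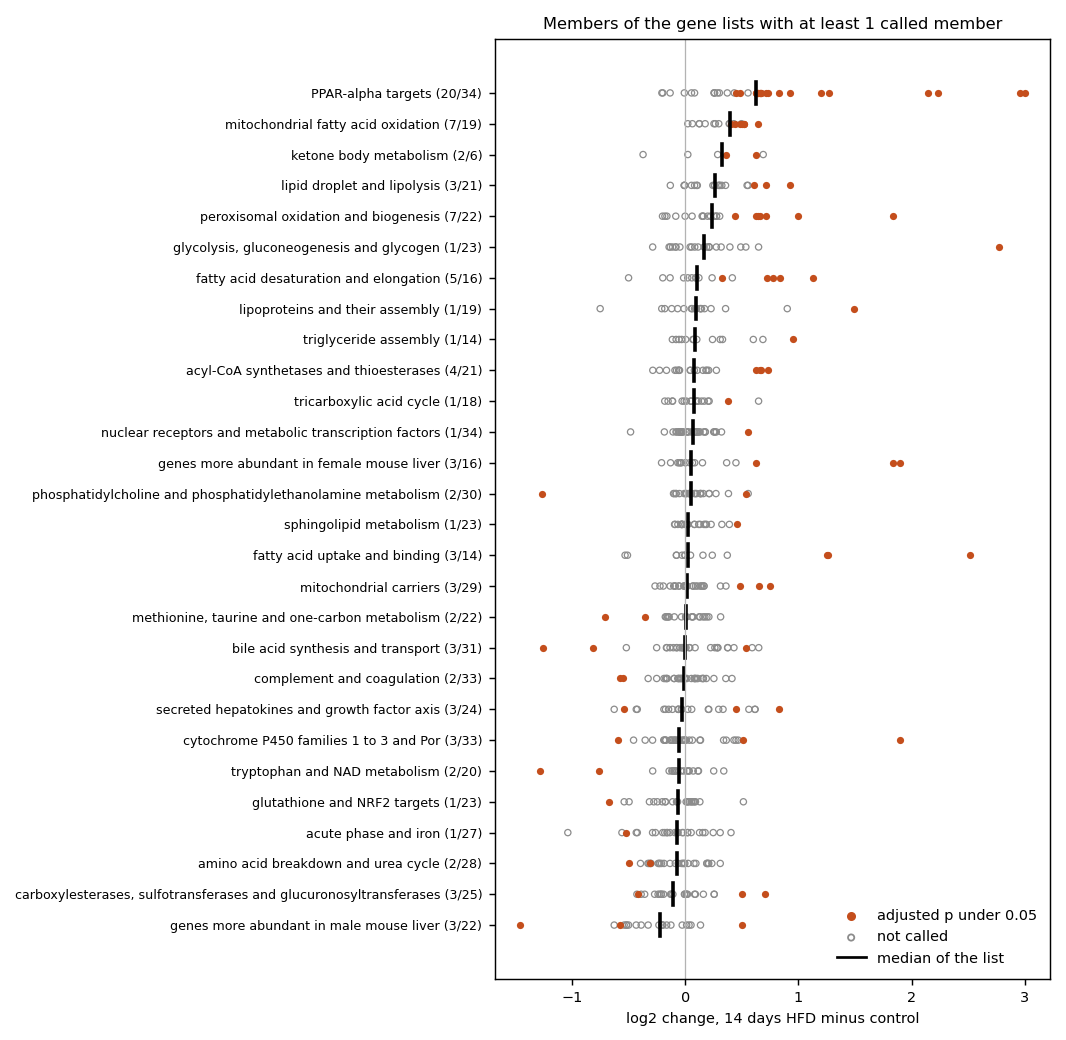
Each point is the log2 difference of 1 gene, 14 days of HFD minus control, for the 28 pathway lists with at least 1 called member; filled points were called, and the bar is the list's median. PPAR-alpha targets have the highest median at 0.62, and the male-biased list the lowest at -0.22.

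Among 31 genes of bile acid synthesis and transport 2 fell and 1 rose. Cyp7a1, which catalyses the slowest step from cholesterol to bile acids, read 6.97, 7.76 and 8.15 after 14 days and 7.27, 9.24 and 10.39 in controls. Its controls spread widely, and 4 of 18 lay below the highest 14-day array. Cyp7a1 was 2.39-fold lower (log2 -1.25, SE 0.30, adjusted p = 0.0268), a call lost without 14-day replicate 1, 2, 3 or 7 (largest adjusted p = 0.107). The aldo-keto reductase gene Akr1c19 fell by 0.81 on the log2 scale (SE 0.14, adjusted p = 0.0005), with 6 of 8 arrays below every control. Abcb4, which exports phosphatidylcholine into bile, rose by 0.54, a call lost without any 1 of 15 arrays (6 of the 14-day and 9 of the control arrays, largest adjusted p = 0.156). The remaining 28 of 31 bile acid genes were not called, among them Cyp8b1 at 0.28, Cyp27a1 at -0.14, Cyp7b1 at -0.52 and the bile acid exporter gene Abcb11 at -0.25.

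Acmsd, which draws an intermediate of tryptophan breakdown away from NAD synthesis, read 4.27, 4.74 and 4.90 at 14 days and 4.94, 5.97 and 6.59 in controls. All 8 arrays lay below every control, and Acmsd was 2.44-fold lower (log2 -1.29, SE 0.12, adjusted p = 9.26e-10). Ddc, aromatic amino acid decarboxylase, read 6.55, 7.08 and 7.33 after 14 days and 6.81, 7.71 and 8.51 in controls (1.70-fold lower, adjusted p = 0.00141). The rest of the tryptophan and NAD list was not called, with Tdo2, the entry enzyme, at -0.29, Qprt at 0.03 and Nampt at -0.04. Etnppl, which breaks down phosphoethanolamine, read 7.30, 7.87 and 8.34 after 14 days and 8.59, 9.13 and 9.5 in controls. It was 2.41-fold lower without overlap (log2 -1.27, SE 0.15, adjusted p = 4.06e-07). Of 30 genes of phosphatidylcholine and phosphatidylethanolamine metabolism only Etnppl fell and only Abcb4 rose. Pemt, which makes phosphatidylcholine by methylation, differed by -0.08, Pcyt1a by 0.10 and Lpcat3 by 0.56 (not called). In sphingolipid metabolism 1 of 23 rose, Kdsr, a reductase of ceramide synthesis (log2 0.46). The lowest member was Asah1, acid ceramidase, at -0.09. The Kdsr call was lost without 14-day replicate 3, 4, 5, 6, 7 or 8 (largest adjusted p = 0.114), and no 14-day array exceeded the highest control.

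Csad, which makes hypotaurine from cysteine sulfinate, was 1.64-fold lower (log2 -0.71, SE 0.18, adjusted p = 0.0447), with 5.83, 6.25 and 6.62 after 14 days against 6.09, 6.82 and 8.04 in controls. Gnmt, which consumes S-adenosylmethionine, fell by 0.36 (adjusted p = 0.00424). Among amino acid and urea cycle genes 2 of 28 fell, Prodh, proline dehydrogenase, by 0.50 (adjusted p = 0.0148) and Arg1, liver arginase, by 0.32 (adjusted p = 0.0373), and 0 rose. Ugdh, which makes UDP-glucuronate for conjugation, read 8.68, 8.95 and 9.19 after 14 days and 9.28, 9.55 and 10.05 in controls, without overlap (1.57-fold lower, adjusted p = 0.000137). Gsta4, a glutathione transferase for lipid aldehydes, read 8.11, 8.51 and 8.82 after 14 days and 8.66, 9.19 and 9.53 in controls (log2 -0.68, SE 0.08, adjusted p = 4.71e-07). It was the 1 called member of 23 glutathione and NRF2 genes, whose highest member was Me1 at 0.51. The calls were lost without single arrays for Csad (7 of the 14-day and 8 of the control arrays, largest adjusted p = 0.137), Arg1 (5 of the 14-day and 10 of the control arrays, 0.165) and Prodh (14-day replicate 1 or 2, 0.08).

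Obp2a, an odorant-binding lipocalin that is more abundant in male mouse liver, had the largest fall. It read 3.77, 4.04 and 4.55 on the 14-day arrays and 4.29, 5.56 and 6.70 on the controls, and 7 of 8 arrays lay below every control. Obp2a was 2.75-fold lower (log2 -1.46, SE 0.20, adjusted p = 4.48e-06). In its promoter (RefSeq, GRCm38.p6, chr2:25699824-25700073, plus strand), shown because Obp2a had the largest fall, capitals mark the TATA box TATAAA, 61 bases before the start, and TGACCT, the core motif read on the opposite strand, 17 bases before it.
Obp2a: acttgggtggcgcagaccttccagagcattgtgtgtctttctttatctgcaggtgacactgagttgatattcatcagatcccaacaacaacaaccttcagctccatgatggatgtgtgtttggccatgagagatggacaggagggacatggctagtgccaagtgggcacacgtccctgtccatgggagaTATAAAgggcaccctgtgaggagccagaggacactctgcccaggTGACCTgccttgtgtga

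The list of 22 genes more abundant in male mouse liver had a median difference of -0.22, with 2 lower and 1 higher. Besides Obp2a, C8b, a complement component, fell by 0.58 (adjusted p = 0.000621), and Ces2e, a carboxylesterase, rose by 0.50. Many uncalled members also lay below 0: Egfr at -0.63, Hsd3b5 at -0.52, Cyp7b1 at -0.52 and Elovl3 at -0.50. Of 16 genes more abundant in female liver 3 rose and 0 fell, with a median of 0.05. Abcd2 and Acot3, described above, stood beside Cyp2b9, a female-biased cytochrome P450. Cyp2b9 read 2.86, 4.40 and 6.4 after 14 days and 2.10, 2.53 and 5.33 in controls, where its mean lay under the background. Replicates 5 and 7 exceeded all controls, and replicate 4 was at the background. Its rise was 3.73-fold (log2 1.90, SE 0.37, adjusted p = 0.0023). The close relative Cyp2b13 differed by -0.07. Cyp2b9 was 1 of 3 called among 33 measured cytochrome P450 genes of families 1 to 3. Cyp2c70, which makes muricholic acids in mice, read 10.64, 11.10 and 11.34 after 14 days and 11.24, 11.64 and 12.23 in controls (1.51-fold lower, adjusted p = 0.0009), and Cyp2d40 rose by 0.51. Among 25 conjugating enzymes and carboxylesterases, Ugt3a1, a glycosyltransferase, rose by 0.71 (adjusted p = 0.000137) and Ces1b fell by 0.42. The calls were lost without single arrays for Ces2e (17 arrays, largest adjusted p = 0.181), Ces1b (16 arrays, 0.157) and Cyp2d40 (11 arrays, 0.165).

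Rgs16, a regulator of G-protein signalling that responds to carbohydrate in liver, was the 1 called member of 23 genes of glycolysis, gluconeogenesis and glycogen. It read 6.05, 7.97 and 9.19 after 14 days and 3.70, 4.81 and 7.6 in controls. Replicate 3 lay apart from the other 7 arrays, which all exceeded the highest control. The rise was 6.83-fold (log2 2.77, SE 0.38, adjusted p = 4.72e-06). The gluconeogenic genes Pck1 and G6pc differed by 0.21 and -0.08, with 95% limits of -0.24 and 0.66 for Pck1 and of -0.60 and 0.43 for G6pc. The lowest member was Ppp1r3c, a glycogen-targeting phosphatase subunit, at -0.29. Insulin signalling had 0 of 23 called and 2 with an unadjusted p under 0.05 in limma. Insr, the insulin receptor, differed by 0.14, Irs2 by 0.14, Irs1 by -0.39 and Mtor by 0.50.

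Among 24 secreted factors and growth axis genes 2 rose and 1 fell. Fgf21, a fasting and stress hormone of the liver, read 5.55, 6.01 and 6.86 after 14 days and 4.51, 5.16 and 5.79 in controls (1.78-fold higher, adjusted p = 0.00194), with 5 of 8 arrays above every control. Angptl4, an inhibitor of lipoprotein lipase, rose by 0.45, a call lost without 14-day replicate 2, 4, 5, 6 or 8 (largest adjusted p = 0.112). Lifr, a cytokine receptor, fell by 0.54, a call lost without 14-day replicate 3, 5, 6 or 7 (largest 0.0821). In complement and coagulation 2 of 33 fell, C8b and C9, both of the membrane attack complex. C8b read 9.30, 9.84 and 10.18 after 14 days and 10.11, 10.33 and 10.83 in controls, and 7 of 8 arrays lay below every control. C9 fell by 0.55 (adjusted p = 0.0489), and its call was lost without any 1 of 21 arrays (7 of the 14-day and 14 of the control arrays, largest 0.166). Orm1, an acute phase glycoprotein, fell by 0.52 and was the 1 called member of 27 acute phase and iron genes. It lost its call without 14-day replicate 1 or 3 (largest 0.0627). Saa1 differed by -0.56, Mt2 by -1.04 and Lcn2 by 0.40, none called. Interferon response (18 genes), cell cycle (19), unfolded protein and integrated stress response (25) and the circadian clock (17) had 0 called members, with 1, 0, 4 and 3 at an unadjusted p under 0.05 in limma. Their extremes were Usp18 at -0.33 and Cxcl9 at 0.20, Aurkb at -0.17 and Ccne1 at 0.14, Sdf2l1 at -0.69 and Eif2ak3 at 0.29, and Arntl at -0.41 and Dbp at 0.73.

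Of the 120 called genes 49 were in none of the pathway lists, 37 of them higher and 12 lower. Serpina7, thyroxine-binding globulin, led them: it read 6.19, 6.76 and 7.4 after 14 days and 4.59, 5.61 and 6.4 in controls (2.33-fold higher, adjusted p = 8.12e-05). Pctp, a phosphatidylcholine transfer protein, read 6.88, 7.66 and 8.14 after 14 days and 5.6, 6.66 and 7.27 in controls (1.97-fold higher, adjusted p = 8.34e-05). Several other genes of lipid handling rose: Nceh1, which hydrolyses neutral cholesterol esters, by 0.60 (adjusted p = 1.35e-05), Osbpl3, an oxysterol-binding protein relative, by 0.53 (adjusted p = 0.00285), and Pank1, a pantothenate kinase that starts coenzyme A synthesis, by 0.33 (adjusted p = 0.0309). Ldha, the main lactate dehydrogenase of liver, read 11.02, 11.09 and 11.18 after 14 days and 10.35, 10.68 and 11.07 in controls. Its rise was small, 1.33-fold, but the 14-day arrays spread little (SD 0.06), and 17 of 18 controls lay below all of them (adjusted p = 2.93e-05). Gpd2, the mitochondrial glycerol 3-phosphate dehydrogenase, rose by 0.64, Vwa8, a mitochondrial ATPase, by 0.73 and Ephx2, soluble epoxide hydrolase, by 0.42. Among transporter genes Slc4a4, a sodium bicarbonate cotransporter, rose by 0.69, Slc17a8, a vesicular glutamate transporter, by 0.74 and Slc17a4, an organic anion transporter, by 0.56. Csrp3, a LIM protein best known from striated muscle, read 6.22, 6.56 and 6.84 after 14 days and 5.55, 6.02 and 6.44 in controls (log2 0.51, adjusted p = 0.00272). Clca3a2, a calcium-activated chloride channel regulator, rose by 0.44 from a control mean under the background, with replicates 5 and 6 at 3.99 and 3.76 and a median of 3.09 over the 8 arrays. The calls were lost without single arrays for Gpd2 (18 arrays, largest adjusted p = 0.181), Ephx2 (18 arrays, 0.156) and Slc4a4 (16 arrays, 0.155). They were also lost without 14-day replicate 1, 5, 7 or 8 for Slc17a8 (largest adjusted p = 0.145), 3, 5, 7 or 8 for Slc17a4 (0.104), 5 or 7 for Vwa8 (0.0568), and 5 or 6 for Clca3a2 (0.0709). The Pank1 call was lost without 14-day replicate 1, 2, 3, 5 or 8 or control replicate 14 or 15 (largest adjusted p = 0.103).

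The other risen genes in no list had log2 changes between 0.28 (Sema5b) and 0.86 (9030619P08Rik). They were 9030619P08Rik, 2010003K11Rik, Pgm3, Spon2, Stap1, 1810058I24Rik, 1810055G02Rik, Chrna2, Perp, Sel1l3, Mmd, Arsg, Rtf2, Rab30, Wfdc2, Hus1, Dcun1d4, Khdrbs3, Spc25, C730029A08Rik, Dhrs4, Marchf8 and Sema5b. Among fallen genes in no list, Slc13a2, a dicarboxylate transporter, read 2.80, 3.04 and 3.27 after 14 days and 3.15, 3.76 and 4.57 in controls (1.63-fold lower, adjusted p = 0.000179). Nat8, an N-acetyltransferase, read 3.49, 3.76 and 4.14 after 14 days and 3.95, 4.39 and 5.08 in controls (1.54-fold lower, adjusted p = 0.00194). Cryl1, a gulonate dehydrogenase of the uronate cycle, read 5.92, 6.16 and 6.27 after 14 days and 6.36, 6.58 and 6.80 in controls, without overlap (log2 -0.43, adjusted p = 2.18e-05). As3mt, arsenic methyltransferase, fell by 0.55, Ethe1, a mitochondrial sulfur dioxygenase, by 0.49, and Ccl9, a chemokine, by 0.45. Lhpp, Hsd17b2, Aprt, Ndfip1 and Ppa1 fell by between 0.27 and 0.39. Their calls were lost without single arrays for Aprt (20 arrays, largest adjusted p = 0.199) and Hsd17b2 (14 arrays, 0.181). They were also lost without 14-day replicate 2 or 3 for Ethe1 (0.0628) and Lhpp (0.0582), 5 or 7 for Ccl9 (0.0778), 5 or 6 for Ppa1 (0.0565) and 1, 2, 5, 6 or 7 for Ndfip1 (0.0826). In all, calls were lost without single arrays for 31 of these 49 genes, each with its largest adjusted p between 0.0549 (Stap1, without 14-day replicate 6) and 0.248 (Chrna2).

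Between feeding times limma called 0 genes at 14 days against 7 days (451 with an unadjusted p under 0.05, smallest adjusted p = 0.121) and 0 at 14 days against 21 days (715 with an unadjusted p under 0.05, smallest adjusted p = 0.999). The median standard error was 0.11, so small differences were not detectable with 8 arrays a group. The gene with the smallest p was Lcn2, lipocalin 2, an acute phase protein. Its log2 value averaged 4.08 ± 0.21 (SD, n = 18) in controls, 5.20 ± 0.29 at 7 days, 4.48 ± 0.41 at 14 days and 4.42 ± 0.30 at 21 days (n = 8 each). At 14 days it was lower than at 7 days by 0.71 (95% limits -0.995 and -0.43, adjusted p = 0.121). This difference was called without 14-day replicate 5 (-0.81, adjusted p = 0.00862) and with array weights (-0.66, adjusted p = 0.0256), where Lrrc28 and Sprr1a were called lower as well. Of the 34 PPAR-alpha targets 30 had a lower mean at 14 days than at 7 days, and 0 were called. Their median difference was -0.17, against -0.0003 over all genes. This was not particular to them: interferon response had 17 of 18 lower (median -0.17). Mitochondrial fatty acid oxidation, a route that PPAR-alpha itself drives, had 16 of 19 lower (median -0.08). Insulin signalling, in contrast, had 11 of 23 lower (median 0.02). Plin2 differed by -0.34 (95% limits -0.57 and -0.12), Slc25a47 by -0.37 (-0.60 and -0.14) and Cyp4a14 by -0.63 (-1.25 and -0.02). Vnn1 differed by -0.06 (-0.43 and 0.31) and Rgs16 by 0.03 (-0.87 and 0.94). Against 21 days the median difference of the PPAR-alpha list was 0.01. Cyp2b9 averaged 2.67 ± 0.72 in controls, 4.73 ± 1.13 at 7 days, 4.57 ± 1.21 at 14 days and 6.19 ± 0.83 at 21 days. It was lower at 14 days than at 21 days by 1.62 (95% limits -2.50 and -0.75), which did not pass adjustment (adjusted p = 0.999). Between 14 and 21 days, feeding time and any batch marked by the word reanalysis cannot be told apart. The comparisons of each feeding time with controls share the same 18 control arrays.

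**Figure D4:**
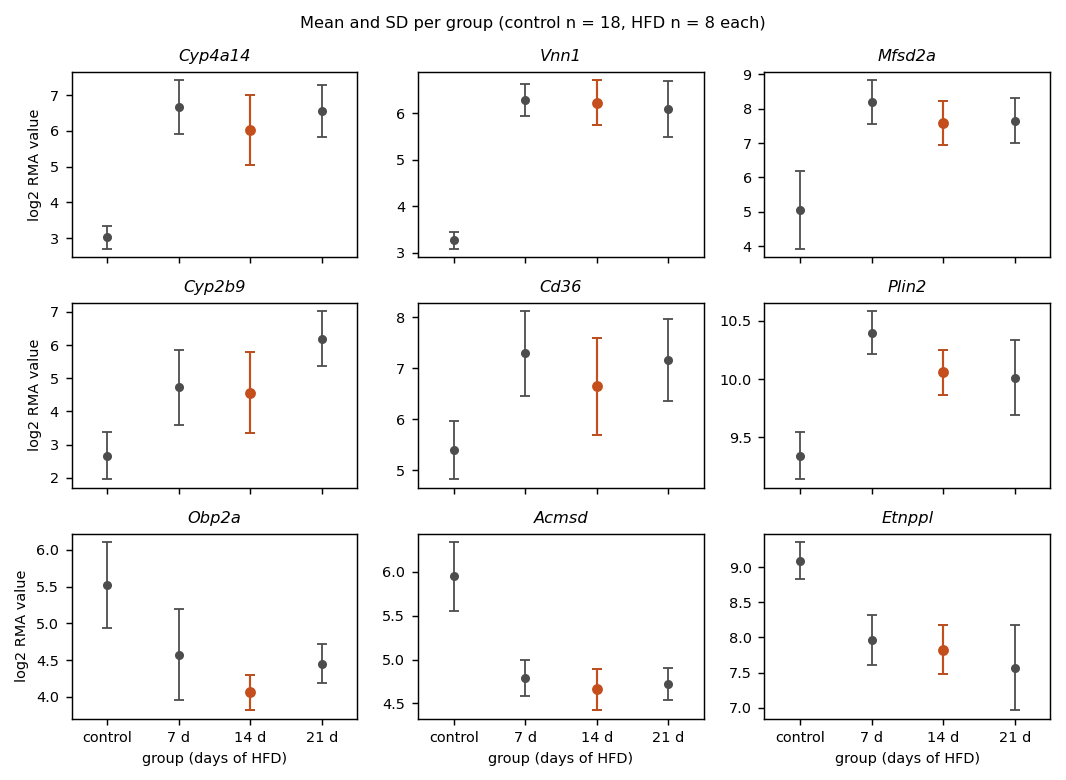
Points are group means of log2 RMA values and bars the SD, for controls (n = 18) and 7, 14 and 21 days of HFD (n = 8 each), with 14 days in colour. Vnn1 averages 3.26 in controls and 6.29, 6.23 and 6.10 at 7, 14 and 21 days, and Cyp2b9 has its highest mean at 21 days.

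The 14-day arrays differed in how far the called genes had shifted. Replicate 5 was the highest 14-day array for 26 of the 91 risen genes and replicate 1 for 22, while replicate 6 was the lowest for 27 and replicate 4 for 24. The median shift of the risen genes from the control mean was 0.74 on replicate 5 and 0.47 on replicate 6. Calls numbered between 81 (without 14-day replicate 5) and 118 (without replicate 4) when 1 of the 14-day arrays was left out, and between 101 and 125 without 1 control. Of the 120 genes 67 kept their call without any single array. Across all alternatives run, 28 kept it, among them Cyp4a10, Cyp4a14, Cyp4a31, Vnn1, Vnn3, Abcd2, Apoa4, Mfsd2a, Rgs16, Fabp2, Plin2, Acmsd, Etnppl, Obp2a and Ugdh.

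Defining markers of hepatocytes were high on every array: the mean of 11 such genes ran from 11.78 to 12.24 after 14 days and from 11.80 to 12.24 in controls, and 0 of them were called. Markers of Kupffer cells and macrophages (16 genes), stellate cells (14), endothelial cells (12), cholangiocytes (6), T, B and NK cells (13), neutrophils (9), adipocytes (7), pancreatic islet cells (5), erythroid cells (2) and skeletal muscle (9) had 0 called members. Their mean levels overlapped between the groups. The Kupffer cell mean, for example, ran from 4.78 to 5.13 (median 4.84) after 14 days and from 4.56 to 5.02 (median 4.78) in controls. Of these 16 Kupffer cell and macrophage genes, 11 had differences above 0 and 3 had an unadjusted p under 0.05 in limma. Only 6 of the 13 lymphocyte and 2 of the 9 neutrophil markers lay above background. Pericentral and periportal hepatocyte genes had 1 called member each, Cyp7a1 and Arg1, both lower. Markers of pancreatic acinar cells, which make digestive enzymes, were present on some arrays. Their mean over 18 genes ran from 3.42 to 8.72 (median 5.19) after 14 days and from 3.35 to 7.85 (median 4.27) in controls. It exceeded 7 on 14-day replicates 3 and 8 and on 1 control. All 18 markers had differences above 0, with a median of 0.63, and 0 were called. With this mean as a covariate 136 genes were called, 117 of them among the 120. Without the arrays above 7 (2 at 14 days, 1 control, 1 at 7 days) 84 genes were called, 82 of them among the 120. Malat1, a nuclear RNA, read 5.76, 7.97 and 9.21 after 14 days and 5.49, 8.47 and 9.54 in controls. Replicates 5 to 8 read 8.61 or more and replicates 1 to 4 read 7.33 or less. The same numbers were apart in the other HFD groups: replicates 5 to 8 read 8.79 or more and replicates 1 to 4 read 7.01 or less at 7 days, and 9.15 or more and 7.41 or less at 21 days. With Malat1 as a covariate 155 genes were called, all 120 among them.

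**Figure D5:**
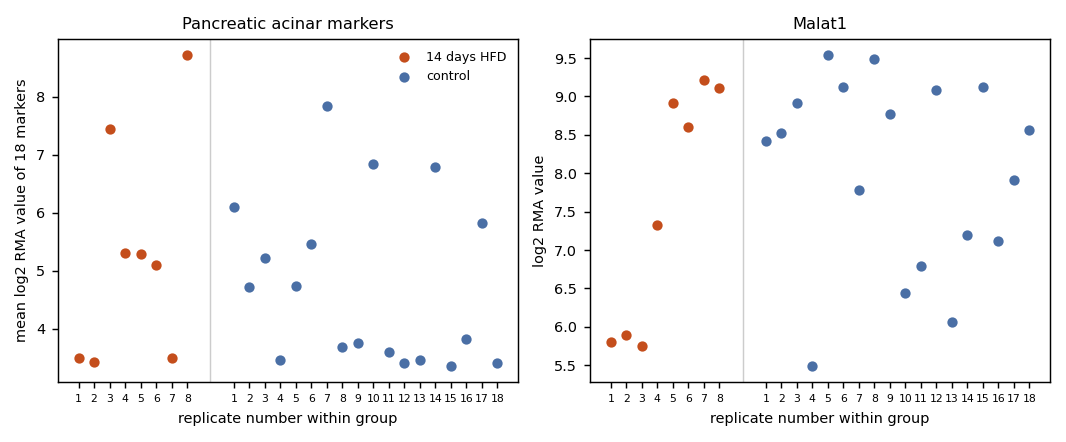
Each point is 1 array, 14 days of HFD on the left (replicates 1 to 8) and control on the right (replicates 1 to 18). The mean log2 RMA value of 18 pancreatic acinar markers exceeds 7 on 14-day replicates 3 and 8, and Malat1 is 8.61 or more on 14-day replicates 5 to 8.

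Several called genes were neighbours. Within 50 kb of each other in the RefSeq table (GRCm38.p6) lay 8 pairs, made of 13 of the 119 called genes with a position. They were Vnn3 with Vnn1, the Acot2, Acot1, Acot4 and Acot3 run, the Cyp4a14, Cyp4a10 and Cyp4a31 run, Hadha with Hadhb, and Ephx2 with Chrna2 on chromosome 14. Apart from the last pair and Hadha with Hadhb, these are close relatives by sequence, so their calls may not be independent.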

How the data were processed

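The files hold log2 values that the authors deposited, made by RMA in Expression Console 1.1 per the submitters' processing notes, for 32624 probe sets on 42 one-colour arrays. The extract protocol in the labels names miRNeasy extraction with DNase treatment and a whole-transcript labelling assay with biotin. Gene names came from the platform annotation: 19559 probe sets had 1 symbol, 1469 several and 11596 none listed. For each gene the probe set with the highest mean was kept, giving 17989 genes. No further normalisation was applied, and array medians lay between 3.08 and 3.28. The lowest SD of the differences between any arrays was 0.255, so no array was held to be a copy of another. Groups were taken from the labels. A linear model with a mean for each of the 4 groups was fitted over the 42 arrays with limma 3.58.1 (lmFit and eBayes, R 4.3.3), two-sided, with Benjamini-Hochberg adjustment over 17989 genes and a threshold of 0.05. Tested on simulated data for 14 days against controls over 17989 genes, the fit called 58 of 67 genes changed by 0.5, 67 of 67 changed by 1 and 65 of 66 changed by 2 on the log2 scale, and 13 of its 203 calls were unchanged genes. The simulated noise was normal and independent between genes and arrays, with each gene's own spread. On the real arrays some sets of genes, such as the acinar markers, vary together, so these rates may not hold for them. The number of arrays limits the precision.

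The members and the 52 gene lists were chosen with earlier results of these data known. The text could name any called gene. The 12 largest rises and falls, without predicted or clone-named genes, were given in full, as were called members of a list, and for lists with under 2 calls the lowest and highest members. Alternatives changed the normalisation, filter, probe set rule, array weights, variance model, replicate block, covariates and the arrays used. Some genes and a promoter sequence are not reported here. Promoters came from RefSeq, GRCm38.p6.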

Additional observations from a re-analysis of the deposited data

Results flagged for a closer look

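Among 132 genes examined, 9 had 1 of the 8 arrays at 14 days far from the others, where the gap to the next array exceeded Dixon's 95% critical value as a share of the group's range. Chance gives such a gap in about 1 of 20 groups. In 6 of them the array was replicate 6, the lowest each time. Sel1l3 read 4.19 on it against 4.73 on the next array (share 0.702), Hadh 10.16 against 10.46 (0.628), Ephx2 9.97 against 10.37 (0.626), Slc25a20 7.91 against 8.41 (0.614), Retsat 8.14 against 8.76 (0.581) and Slc22a5 3.93 against 4.40 (0.554). Replicate 6 was the lowest 14-day array for 27 of the 91 risen genes. Rgs16 was lowest on replicate 3 at 6.05, with the next at 7.72 (0.531), and Cyp2c70 was lowest on replicate 5 at 10.64, with the next at 11.07 (0.613). Pdk4 was highest on replicate 7 at 5.82, with the next at 4.55 (0.558). What set these arrays apart was not tested.

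Probe sets without a single gene symbol were outside the comparisons above. In a limma fit over all probe sets, 7 of 1469 with several symbols were called, 2 higher and 5 lower after 14 days. Of 11596 with no symbol listed 8 were called, 4 higher and 4 lower. Among those with 1 symbol 90 of 19558 were called, 68 higher and 22 lower.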

How the results depend on the processing

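The count of 120 called genes (91 higher, 29 lower) rose to 193 (144 and 49) with array weights. It fell to 77 (58 and 19) with the replicate number as a block, to 47 (34 and 13) with only 14-day arrays 1 to 4, to 54 (40 and 14) with only arrays 5 to 8 and to 61 (43 and 18) with only control arrays 10 to 18. The last 3 use fewer samples. Replicate numbers above 8 occur only in controls, so with the block those control arrays add nothing to the difference. The block count therefore also rests on fewer arrays. Of its 77 calls, 67 were among the 120. With the block, 1652 genes had an unadjusted p under 0.05 in limma against controls, compared with 1079 in the main fit. Any further cause of the change in the count was not tested. No label says what the numbers share. In their deviations from the group means, same-numbered 14-day and control arrays correlated between -0.255 and 0.201, 14-day and 7-day arrays between -0.167 and 0.492, and 14-day and 21-day arrays between 0.0981 and 0.517. The 14-day array correlated best with its own number for 1, 2 and 2 of 8. With the block, limma still called 0 genes at 14 days against 7 or 21 days (468 and 726 with an unadjusted p under 0.05). Without single arrays there were 81 to 125 calls, 62 to 95 higher and 18 to 31 lower. With only the 26 arrays compared, quantile normalisation, median centring, the background filter, mean probe sets, a trended or robust variance, control arrays 1 to 9 only and either covariate, the counts lay between 95 and 155. Against 7 days, 3 genes were called with array weights and 0 to 1 without single arrays.

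None of the 120 called genes reversed in any setting run. Uncalled genes with small differences did. G6pc was 0.075 with 14-day arrays 1 to 4, 0.0025 with control arrays 10 to 18, and -0.235 to 0.0302 without single arrays. Pck1 was -0.0324 with 14-day arrays 5 to 8 and -0.0409 with control arrays 10 to 18, where Cidec was -0.0098. With 14-day arrays 5 to 8, Irs2 was -0.13 and Malat1 0.94. The cause was not tested. Folds of genes near background in controls, such as Clca3a2 and Cyp2b9, can be understated, and the number of arrays limits all comparisons between feeding times.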
